A study of Mus musculus and Homo sapiens with 34 samples.

Results

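A group of 10 genes of the endoplasmic reticulum folding machinery were followed in spheroids of 3 colorectal carcinoma lines cultured with or without an extracellular matrix biomaterial. They are the transcription factor gene XBP1, the chaperone genes HSPA5 and HSP90B1, the co-chaperone genes DNAJB9, DNAJC3 and SDF2L1, the oxidoreductase gene PDIA4, the degradation gene HERPUD1, and MANF and CRELD2, whose products are made in the endoplasmic reticulum and in part secreted. Members were found by gene symbol, ignoring case, and all 10 were present among the 55450 genes of the mouse table and among 58870 genes of the human table. All 10 passed the filter on low counts in every line.

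CT26 and MC38 are mouse colon carcinoma lines, and HT29 is a human colorectal adenocarcinoma line. Spheroids grew for 7 days on ultra-low attachment plates, either as cells alone or with decellularised SIS ECM (these spheroids are named MatriSpheres in the series), in the same serum-containing RPMI medium, and 10 spheroids were pooled into each tube for RNA. CT26 and HT29 gave 6 libraries per culture, and MC38 gave 5 per culture (numbered 1 to 5 for cells alone and 1, 3, 4, 5 and 6 for SIS ECM). No genotype, drug or transgene differed between the groups of a line, each line is a single population of tumour cells, and no sources used here state that libraries of a group came from separate cultures. The p-values are therefore set by the scatter among these libraries, part or all of which may be technical.

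In units of 1000000 counts, each mouse library held 15.8 to 24.2 and each human library 25.5 to 37.0. Levels are given as CPM, counts per 1000000 counts of the library after scaling by TMM factors. HT29 expressed all 8 intestinal epithelial markers examined (9210 to 10500 summed CPM in cells alone). CT26 had a mean of at least 1 CPM for 2 of the 8, KRT18 and KRT20, with 44.8 to 60.6 summed CPM. MC38 reached that level for 0 of the 8 in either culture (0.552 to 0.911 summed CPM in cells alone), so its labelled carcinoma identity was not visible in these markers. Endothelial markers summed to at most 5.19 CPM in every group. In both mouse lines, libraries numbered 1 to 3 stood apart from libraries numbered 4 to 6, and mouse results are given for all libraries and, for some genes, also by range. The labels do not say what the numbers stand for.

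Secretory and membrane proteins fold inside the endoplasmic reticulum, where HSPA5 (BiP) binds unfolded chains and HSP90B1 (GRP94) finishes a subset of them. When unfolded chains accumulate, the sensors IRE1 (ERN1), PERK (EIF2AK3) and ATF6 start the unfolded protein response. IRE1 splices XBP1 mRNA into the form that encodes an active transcription factor, and XBP1 and ATF6 raise chaperone and degradation genes. Gene-level counts do not separate spliced from unspliced XBP1 mRNA, so the XBP1 values below are total transcript.

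ATF6 and XBP1 act through known promoter elements, which were searched on both strands in mouse RefSeq promoter windows (GRCm38.p6, 250 bases before to 50 bases after the gene's start). Windows were listed for 9 of the 10 genes, all but Manf. The endoplasmic reticulum stress element (ERSE, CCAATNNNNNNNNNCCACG) was found in 4 of the 9, against 0.119% of all 32851 windows. The related ERSE-II (ATTGGNCCACG) was found in 1, against 0.0365% of windows, and the core of the XBP1-type element (TGACGTGG) in 0, against 0.676% of windows. The matches lay at −65 to −47 in Hspa5, at −212 to −194 and −107 to −89 in Hsp90b1, at −105 to −87 in Dnajc3, at −126 to −108 in Creld2 and, for ERSE-II, at −52 to −42 in Herpud1, counted in bases from the RefSeq start of the gene. The 250 bases before the start are shown 5′ to 3′ on the gene's strand for the 4 genes with ERSE, because this known element of stress-response promoters was matched there, with each match in capitals. In Creld2 and for the second match in Hsp90b1 the element reads on the opposite strand.
Hspa5, chr2:34771840-34772089, plus strand: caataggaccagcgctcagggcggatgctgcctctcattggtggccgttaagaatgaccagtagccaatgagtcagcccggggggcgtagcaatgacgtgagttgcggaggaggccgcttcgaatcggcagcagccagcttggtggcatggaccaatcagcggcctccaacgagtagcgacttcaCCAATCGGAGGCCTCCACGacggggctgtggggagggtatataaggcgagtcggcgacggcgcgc
Hsp90b1, chr10:86705445-86705694, minus strand: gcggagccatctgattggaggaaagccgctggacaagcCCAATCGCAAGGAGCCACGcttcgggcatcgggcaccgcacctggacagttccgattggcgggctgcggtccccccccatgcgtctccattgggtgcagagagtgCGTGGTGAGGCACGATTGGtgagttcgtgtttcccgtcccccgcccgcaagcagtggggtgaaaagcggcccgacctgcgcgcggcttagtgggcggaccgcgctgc
Dnajc3, chr14:118937682-118937931, plus strand: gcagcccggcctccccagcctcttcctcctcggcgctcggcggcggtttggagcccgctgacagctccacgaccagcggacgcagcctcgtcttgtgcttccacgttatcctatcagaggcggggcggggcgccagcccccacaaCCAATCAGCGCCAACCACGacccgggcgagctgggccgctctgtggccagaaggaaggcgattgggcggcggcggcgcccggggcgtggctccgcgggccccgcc
Creld2, chr15:88819396-88819645, plus strand: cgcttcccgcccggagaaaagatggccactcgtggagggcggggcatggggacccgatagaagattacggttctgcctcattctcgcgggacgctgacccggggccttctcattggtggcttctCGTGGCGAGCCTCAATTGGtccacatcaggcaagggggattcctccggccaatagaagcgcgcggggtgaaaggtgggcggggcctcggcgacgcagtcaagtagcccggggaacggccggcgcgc
The letters come from the mouse reference, and the human promoters were not used here. A match is a description of the window, and no binding was measured. These elements were already known in promoters of this response, so the counts beside all windows are no test of enrichment.

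Most of the group was lower with SIS ECM in HT29. Of the 10 genes, 7 fell, at an adjusted p below 0.05 (edgeR's quasi-likelihood test, Benjamini-Hochberg adjustment over 15207 genes), while 5.79% of all genes tested fell. The 7 were CRELD2, HERPUD1, HSPA5, HSP90B1, SDF2L1, MANF and PDIA4, and 0 rose, against 7.75% of all genes that rose. The median log2 fold change of the 10 genes was −0.19, and that of all genes was −0.005. Together the 10 genes took 0.394 ± 0.014% (SD, n = 6) of counts in cells alone and 0.343 ± 0.0068% (n = 6) with SIS ECM. HSP90B1 and HSPA5 made up most of that share, at means of 1446 and 1085 CPM in cells alone, with PDIA4 next at 704.7. In these bulk libraries, fewer cells with a high level and less RNA per cell cannot be told apart.

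**Figure D1:**
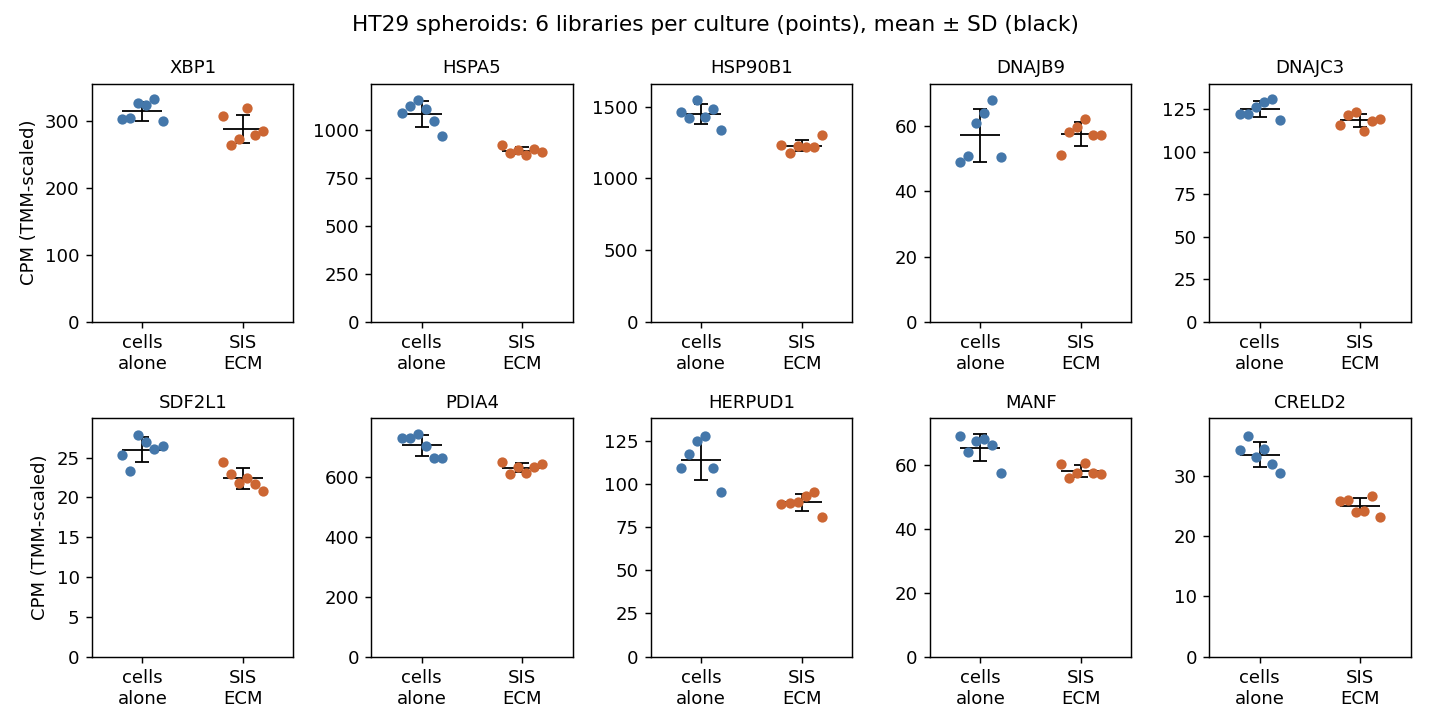
Level of each gene in the 12 HT29 libraries, in CPM scaled by TMM factors (vertical axes from 0), for cells alone (blue) and SIS ECM (orange). Points are libraries and black marks are mean ± SD over 6 libraries. The cultures do not overlap for HSPA5, HSP90B1, PDIA4 and CRELD2, and overlap almost wholly for DNAJB9.

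The 2 abundant chaperones fell in HT29 without overlap between cultures. HSPA5, the HSP70 of the endoplasmic reticulum, ran from 973 to 1159 CPM (median 1102) in cells alone and from 870.4 to 922 (median 891) with SIS ECM. Every SIS ECM library lay below every cells-alone library, and the log2 fold change was −0.28 ± 0.046 (SE; adjusted p = 0.000488). HSP90B1, its HSP90 partner, ran from 1336 to 1547 CPM (median 1444) and from 1175 to 1301 (median 1222). Its groups were also apart, with a log2 fold change of −0.24 ± 0.045 (adjusted p = 0.00187). Complete separation with SIS ECM lower was seen for 4 of the 10 genes and for 2.74% of all genes.

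The largest fall in HT29 was in CRELD2, a secreted stress-inducible protein with disulfide isomerase-like activity. Its levels ran from 30.6 to 36.7 CPM (median 33.8) in cells alone and from 23.2 to 26.7 (median 25.01) with SIS ECM, a ratio of means of 0.745. The groups were apart, with a log2 fold change of −0.43 ± 0.051 (adjusted p = 2.33e-05). MANF, a stress-inducible factor that binds HSPA5 and is in part secreted, ran from 57.5 to 69.0 CPM (median 66.7) and from 55.7 to 60.5 (median 57.3). Here 4 of 6 SIS ECM libraries lay below all cells-alone libraries, and the log2 fold change was −0.17 ± 0.045 (adjusted p = 0.0175).

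HERPUD1, a membrane protein that organises the HRD1 ligase of endoplasmic reticulum-associated degradation, ran from 95.2 to 128 CPM (median 114) in cells alone and from 81.1 to 95.6 (median 89.1) with SIS ECM. Only 1 SIS ECM library reached the range of cells alone, and the log2 fold change was −0.35 ± 0.062 (adjusted p = 0.000949). PDIA4, which forms disulfide bonds, ran from 661 to 743 CPM (median 716) and from 610.2 to 649 (median 633). Its groups were apart by a narrow gap, with a log2 fold change of −0.16 ± 0.043 (adjusted p = 0.0182). Without cells-alone library 3 the PDIA4 call was lost (adjusted p = 0.0512, within a range of 0.000309 to 0.507 over 20 alternatives).

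Among the co-chaperones, SDF2L1, which works with HSPA5 and its J-domain partners, was the member that fell in HT29. It ran from 23.3 to 27.9 CPM (median 26.3) in cells alone and from 20.8 to 24.5 (median 22.2) with SIS ECM, and its log2 fold change was −0.22 ± 0.052 (adjusted p = 0.00984). DNAJC3 (p58IPK), a J-domain protein, had medians of 124.5 and 119 CPM, with a log2 fold change of −0.08 ± 0.039 (adjusted p = 0.204). DNAJB9 (ERdj4), a J-domain protein that restrains IRE1, ran from 49.1 to 67.9 CPM in cells alone and from 51.0 to 62.1 with SIS ECM, with a log2 fold change of 0.01 ± 0.076 (adjusted p = 0.954). Its libraries were spread widest among the 10 genes in cells alone, with a coefficient of variation of 14.1%.

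XBP1 itself did not pass the test in HT29. Its total transcript ran from 299 to 332 CPM (median 314) in cells alone and from 264 to 319 (median 283) with SIS ECM, and 4 of 6 SIS ECM libraries lay below all cells-alone libraries. The log2 fold change was −0.13 ± 0.050 (adjusted p = 0.105). Without SIS ECM library 4 the gene passed (adjusted p = 0.0299, the lowest of 20 alternatives, whose highest was 0.509).

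In a secretory marker list, 1 of 5 genes tested fell and 1 rose in HT29, with a median log2 fold change of −0.05. Of 7 goblet-cell markers, 5 had a mean of at least 1 CPM, and ATOH1 and SPINK4 stayed below 1 CPM in all libraries. Their summed level ran from 731 to 837 CPM in cells alone and from 570 to 647 with SIS ECM. Most of that sum was AGR2, a disulfide isomerase relative of secretory epithelium, at 716 ± 46 CPM (SD, n = 6) and 525 ± 32 (n = 6), with a log2 fold change of −0.45 ± 0.052 (adjusted p = 1.75e-05). FCGBP, a mucus protein of the same list, rose (log2 fold change 0.41 ± 0.099, adjusted p = 0.0106). The part of these markers in the fall of the chaperone genes was not tested.

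In CT26 the same culture change went with small rises. Of the 10 genes, 2 rose, DNAJB9 and MANF, and 0 fell, while 6.15% of all 12269 genes tested rose and 3.1% fell. All 10 log2 fold changes were positive in this fit over all libraries, with a median of 0.14 against 0.008 over all genes. DNAJC3 was nearest 0 (0.014 ± 0.065), and was negative with DESeq2 (−0.002) and with no filter on low counts (−0.006). In libraries 4 to 6 alone SDF2L1 (−0.31), PDIA4 (−0.06), CRELD2 (−0.03) and HERPUD1 (−0.004) were negative and not called. The other members stayed positive there. DNAJB9 ran from 50.5 to 66.1 CPM (median 59.97) in cells alone and from 65.6 to 111.5 (median 77.2) with SIS ECM. All but 1 SIS ECM library exceeded every cells-alone library, and the log2 fold change was 0.48 ± 0.125 (adjusted p = 0.0271). MANF ran from 127 to 135 CPM (median 131) and from 138 to 165 (median 153), with no overlap and a log2 fold change of 0.22 ± 0.058 (adjusted p = 0.0264). Complete separation with SIS ECM higher was seen for 1 of the 10 genes and for 3.87% of all genes.

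The 2 CT26 calls lay near the threshold. DNAJB9 lost its call in 4 of 12 fits that left out a library (cells-alone libraries 4, 5 and 6 and SIS ECM library 1), with an adjusted p of up to 0.0646. MANF lost its call in 7 of 12 (SIS ECM libraries 1 and 4 and cells-alone libraries 2 to 6, adjusted p of up to 0.0731) and with no filter on low counts (adjusted p = 0.134). Mouse Manf also shares 146 exon bases with Dcaf1 on the opposite strand (mean counts of 2533 and 1840 per library), and no source used here states the strand setting of the counting, so reads of the 2 genes may not be fully separated.

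Beside the CT26 result, 1 of 2 plasma-cell markers tested and 1 of 3 epithelial markers tested rose. The summed level of plasma-cell markers ran from 31.2 to 43.3 CPM in cells alone and from 46.5 to 95.5 with SIS ECM, and 2 of its 5 markers, SDC1 and PRDM1, had a mean of at least 1 CPM. PRDM1, a transcription factor that tumour cells can also express, rose (log2 fold change 1.13 ± 0.222, adjusted p = 0.00514). The defining markers JCHAIN, MZB1 and IRF4 stayed below 1 CPM in every CT26 library. Epithelial markers summed to between 44.8 and 60.6 CPM in cells alone and between 65.5 and 78.9 with SIS ECM, also without overlap. Of 3 tested, KRT18, a keratin, rose (log2 fold change 1.11 ± 0.197, adjusted p = 0.00252), while EPCAM, CDH1, KRT8, KRT19 and VIL1 stayed below 1 CPM in all CT26 libraries. Of 5 fibroblast markers tested, DCN rose (0.65 ± 0.158, adjusted p = 0.0191), with sums that overlapped (521 to 792 and 449 to 683 CPM). The part of these markers in the result was not tested.

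The cultures of CT26 were apart in the summed level of the group in libraries 1 to 3 and not in libraries 4 to 6. HSP90B1 and HSPA5 made up most of that sum, at means of 2942 and 1862 CPM in cells alone, with PDIA4 next at 231.6. In libraries 1 to 3, the 10 genes took 0.567 to 0.595% of counts in cells alone and 0.681 to 0.729% with SIS ECM. In libraries 4 to 6 the shares were 0.461 to 0.471% and 0.461 to 0.498%, so the cultures touched. The share of counts from mitochondrially encoded genes also separated the cultures in libraries 1 to 3 (4.82 to 5.01% in cells alone, 3.72 to 4.23% with SIS ECM) and overlapped in libraries 4 to 6 (7.87 to 8.29% and 7.66 to 8.59%), and its part was not tested. HSPA5 in cells alone measured 2116, 2121 and 1987 CPM in libraries 1 to 3, and 2607, 2413 and 2695 with SIS ECM. In libraries 4 to 6 it measured 1665, 1656 and 1627 CPM in cells alone and 1832, 1589 and 1631 with SIS ECM, so the cultures were apart in the first range and overlapped in the second. The difference between the 2 responses did not pass the test for HSPA5 (−0.27 ± 0.094 on the log2 scale, adjusted p = 0.179). The share of all genes whose cultures were apart within a range was not computed.

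SDF2L1 turned direction between the ranges in CT26. It measured 4.39, 5.08 and 5.33 CPM in cells alone and 7.60, 6.96 and 7.86 with SIS ECM in libraries 1 to 3. In libraries 4 to 6 it measured 6.94, 7.48 and 7.26 CPM in cells alone and 5.23, 5.85 and 6.18 with SIS ECM. The response in libraries 4 to 6 minus that in libraries 1 to 3 was −0.91 ± 0.170 on the log2 scale (adjusted p = 0.0432), a test that called 0.383% of all genes and was chosen after the data had been seen. None of the other 9 genes passed it, CRELD2 being nearest in CT26 at −0.43 ± 0.118 (adjusted p = 0.11).

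Fitted on libraries 1 to 3 alone, 5 of the 10 genes rose in CT26 (HSPA5, DNAJB9, SDF2L1, MANF and CRELD2), against 9.92% of all genes. Fitted on libraries 4 to 6 alone, 2 rose (DNAJB9 and MANF), against 11.1%. With a term for the number range, 4 rose, XBP1 (log2 fold change 0.14, adjusted p = 0.0274) and HSPA5 (0.18, adjusted p = 0.0367) being added, against 15.2% of all genes. These 3 fits called 2484, 2333 and 3545 of all genes, against 1135 without the term.

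**Figure D2:**
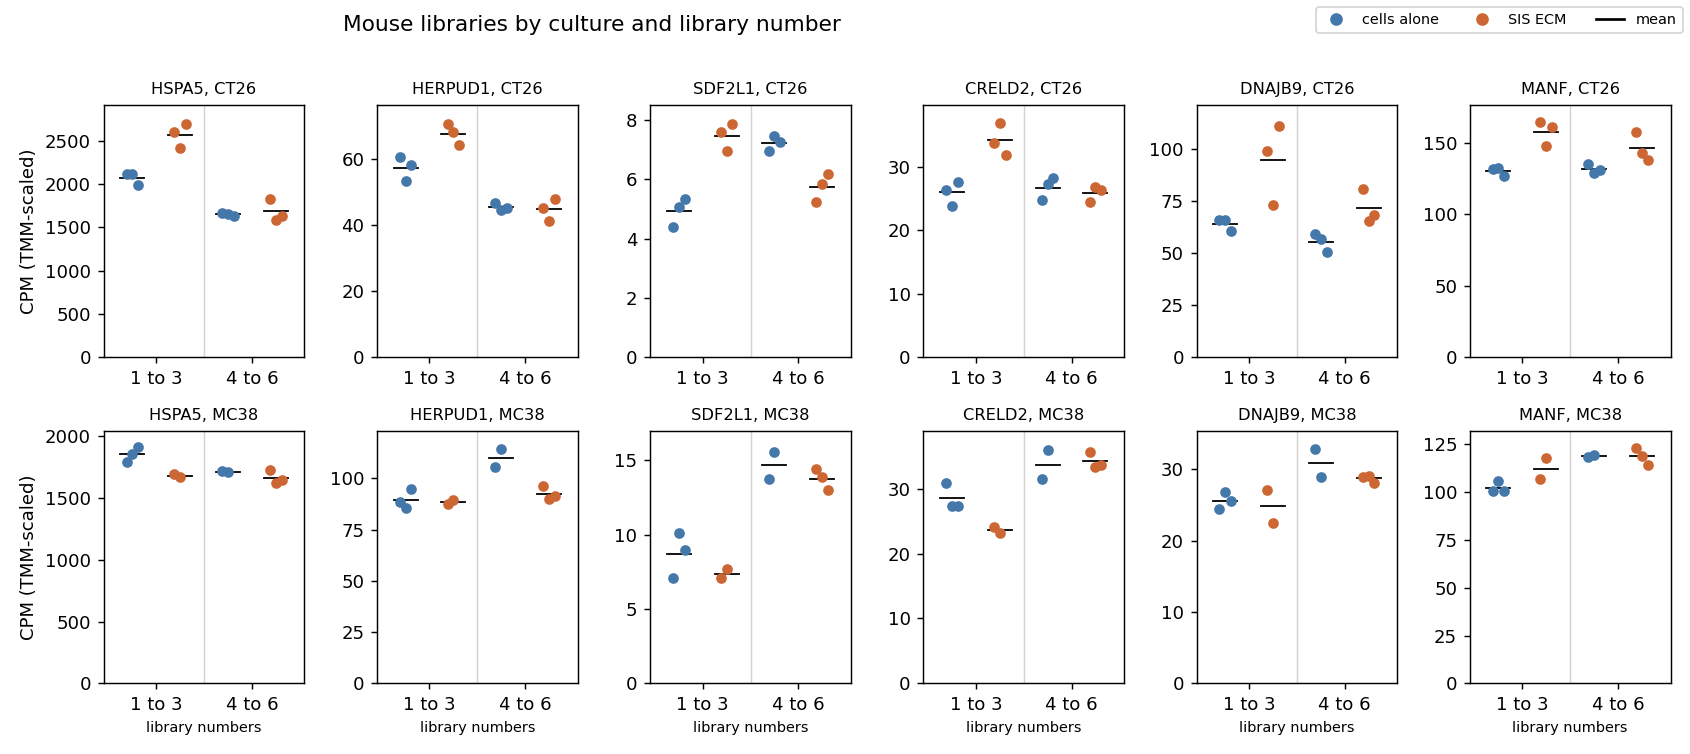
Level of 6 genes in CT26 (top) and MC38 (bottom) in CPM scaled by TMM factors (vertical axes from 0), split by library number (1 to 3, 4 to 6) and coloured by culture. Points are libraries and black lines are means. In CT26, HSPA5, HERPUD1, SDF2L1 and CRELD2 lie above cells alone without overlap in libraries 1 to 3 and not in libraries 4 to 6, while DNAJB9 and MANF do so in both ranges. XBP1, HSP90B1 and PDIA4, not drawn, were also apart in CT26 libraries 1 to 3 and overlapped in libraries 4 to 6. Each CT26 range holds 3 libraries per culture, and the share of all genes without overlap within a range was not computed.

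In MC38 none of the 10 genes passed edgeR's test, and 1 had an unadjusted p below 0.05, while 9.17% of all 13146 genes tested were called (3.82% higher, 5.36% lower). The median log2 fold change was 0.003, with 5 positive and 5 negative values. The number ranges were uneven between these cultures, and this fit had no term for them. Libraries numbered 1 to 3 were 3 for cells alone and 2 for SIS ECM, and those numbered 4 to 6 were 2 and 3. XBP1 measured 133, 136, 141, 158 and 155 CPM in cells-alone libraries 1 to 5 and 158, 150.1, 175, 156 and 168 in SIS ECM libraries 1, 3, 4, 5 and 6. In that order HSP90B1 measured 2022, 2119, 2177, 2062 and 1970 CPM in cells alone and 1975, 1939, 1814, 1696 and 1765 with SIS ECM. For XBP1 3 of 5 SIS ECM libraries exceeded every cells-alone library (log2 fold change 0.18 ± 0.072, adjusted p = 0.141), and for HSP90B1 4 of 5 lay below (−0.15 ± 0.072, adjusted p = 0.197). DESeq2 called HSP90B1 (adjusted p = 0.0387) and limma-voom called 0 of the 10. Beside these values, fibroblast markers summed to between 3260 and 4170 CPM in cells alone and between 2360 and 3870 with SIS ECM, LUM, THY1 and COL1A2 staying below 1 CPM. Of 5 tested, COL1A1 and FAP fell, and their part was not tested.

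With a term for the number range, XBP1 rose in MC38 (log2 fold change 0.14, adjusted p = 0.026, within 0.00746 to 0.299 over 18 alternatives). That fit called 3246 of all genes, against 1206 without the term, and 12.2% of all genes rose in it, against 1 of the 10. In libraries 1 to 3 alone XBP1 rose while HSPA5 and CRELD2 fell, so 1 of the 10 rose and 2 fell, near the 19.3% and 20.4% of all genes that did so. In libraries 4 to 6 alone HERPUD1 fell (log2 fold change −0.23, adjusted p = 0.0091), 1 of the 10 against 8.48% of all genes. The mitochondrial share was 3.42 to 3.75% in cells alone and 4.92 to 4.94% with SIS ECM in libraries 1 to 3, and its part was not tested. CRELD2 measured 30.9, 27.4 and 27.4 CPM in cells-alone libraries 1 to 3 against 24.01 and 23.1 in SIS ECM libraries 1 and 3, and 31.4 and 35.98 in cells-alone libraries 4 and 5 against 35.7, 33.4 and 33.6 in SIS ECM libraries 4 to 6. The cultures were thus apart in the first range (3 libraries against 2, with no share over all genes computed) and overlapped in the second. The difference of the responses was 0.32 ± 0.105 (adjusted p = 0.0352). That test, also chosen after the data had been seen, called 21.9% of all MC38 genes.

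**Figure D3:**
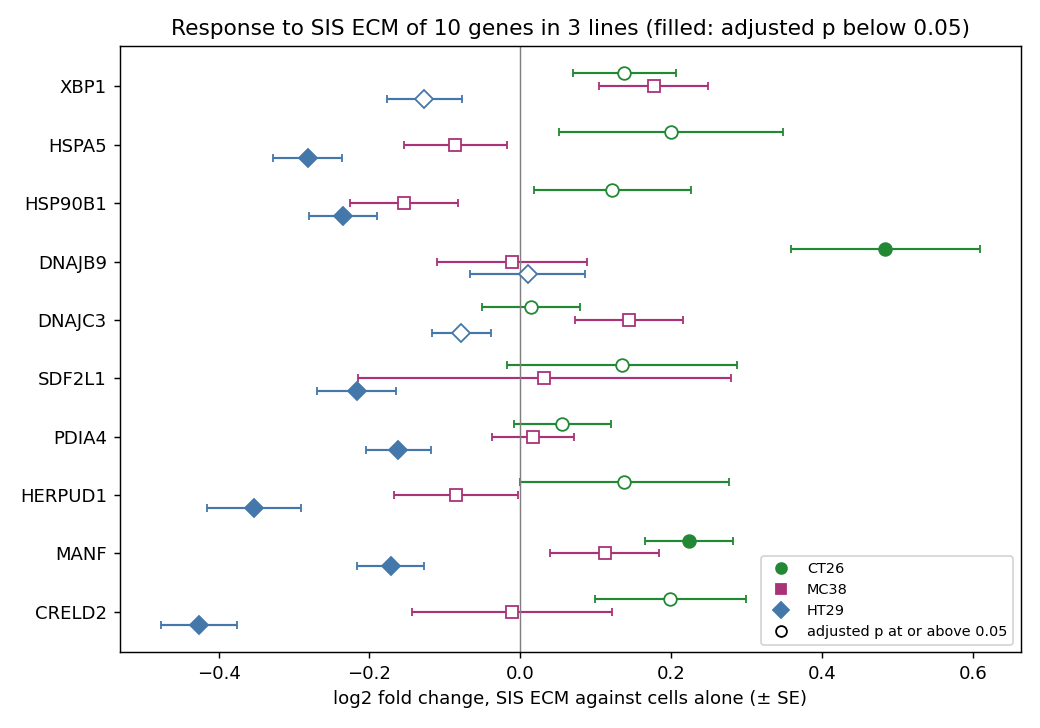
Log2 fold change of each gene with SIS ECM against cells alone in CT26 (circles), MC38 (squares) and HT29 (diamonds), with bars of 1 SE and filled symbols for an adjusted p below 0.05. In HT29, 7 filled symbols lie left of 0, in CT26 2 lie right of 0, and in MC38 all are open.

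A contrast then set the HT29 response beside the average of CT26 and MC38, for 12272 symbol-matched genes. All 10 differences were negative, with a median of −0.30, and 4 genes were called lower, against 2.86% of all genes tested. They were CRELD2 (log2 difference −0.53 ± 0.123, adjusted p = 0.00617), MANF (−0.35 ± 0.068, adjusted p = 0.00113), XBP1 (−0.30 ± 0.075, adjusted p = 0.0143) and PDIA4 (−0.21 ± 0.062, adjusted p = 0.0376). PDIA4 lost its call in 20 of 34 fits that left out a library (adjusted p of up to 0.0917), with no filter on low counts (adjusted p = 0.0649) and in the fit blocked on replicate number within each line (adjusted p = 0.0631). That block added HSPA5, HSP90B1 and HERPUD1, so that 6 genes were called lower, against 4.52% of all genes. With a term for the number range, 8 were called lower, all but DNAJB9 and SDF2L1, against 7.76% of all genes. Species, line and the separate count tables change together in this contrast and cannot be told apart.

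Between the mouse lines, none of the 10 responses differed in edgeR's test, which called 8.27% of 14080 genes, and 2 had an unadjusted p below 0.05. DNAJB9 was nearest, with a response 0.50 lower in MC38 on the log2 scale (log2 difference −0.50 ± 0.170, adjusted p = 0.0671). It passed with the replicate number as a block (adjusted p = 0.0221) and without CT26 SIS ECM library 5 or 6 (adjusted p down to 0.033). With a term for the number range in each line, 5 genes were called lower in MC38 than in CT26 (HSPA5, HSP90B1, DNAJB9, HERPUD1 and CRELD2), against 13.8% of all genes, and 3740 of all genes were called, against 1165 without it.

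Most of the 10 genes, like most genes tested, differed in level between the mouse lines without matrix. Of the 10 genes, 9 differed between MC38 and CT26 cells alone, 4 higher and 5 lower in MC38, while 80.2% of all 13436 genes tested differed (42.3% higher, 37.9% lower). HERPUD1 averaged 97.8 ± 12 CPM (SD, n = 5) in MC38 and 51.5 ± 6.9 (n = 6) in CT26 (log2 difference 0.92 ± 0.109, adjusted p = 2.13e-06). SDF2L1 was also higher in MC38 (0.88 ± 0.203), as were XBP1 (0.51 ± 0.069) and CRELD2 (0.21 ± 0.084). DNAJB9 averaged 27.7 ± 3.3 CPM in MC38 and 59.9 ± 5.9 in CT26, with no overlap of libraries (log2 difference −1.12 ± 0.099, adjusted p = 8.36e-08). DNAJC3 (−0.75 ± 0.070), HSP90B1 (−0.51 ± 0.081), MANF (−0.27 ± 0.065) and PDIA4 (−0.17 ± 0.048) were lower in MC38, and HSPA5 was not called (−0.06 ± 0.097, adjusted p = 0.567).

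Per kilobase of exon (GENCODE M21 gene models, mm10), HSP90B1 and HSPA5 stood far above the rest in all 4 mouse groups. In CT26 cells alone HSP90B1 averaged 730 ± 56 CPM per kb (SD, n = 6) and HSPA5 440.3 ± 56, followed by PDIA4 at 96.5 ± 3.0. The next 3, MANF (37.2 ± 0.85), DNAJC3 (35.3 ± 1.9) and XBP1 (31.2 ± 1.6), lay close together. DNAJB9 (23.5 ± 2.3) and HERPUD1 (22.1 ± 3.0) did not differ beyond their spread, and neither did HERPUD1 and CRELD2 (19.3 ± 1.2). SDF2L1 was lowest at 5.49 ± 1.2. In mm10, Hsp90b1 (ENSMUSG00000020048.13) lies at chr10:86690209-86705509 on the minus strand, Hspa5 (ENSMUSG00000026864.13) at chr2:34771970-34777547 on the plus strand and Xbp1 (ENSMUSG00000020484.18) at chr11:5520659-5525893 on the plus strand. In MC38 cells alone XBP1 (44.5 ± 3.5, n = 5) and HERPUD1 (41.9 ± 5.2) took the fourth and the fifth place, within their spread, and DNAJB9 (10.9 ± 1.3) and SDF2L1 (10.0 ± 3.2) were lowest.

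The genes called between the number ranges were lower in CT26 and higher in MC38, and not every gene reversed. With culture in the fit, 6 of the 10 genes were lower in CT26 libraries 4 to 6 than in libraries 1 to 3, against 26.3% of all genes, the largest shifts being in HSPA5 (log2 difference −0.47 ± 0.061) and HERPUD1 (−0.46 ± 0.059). In MC38, 7 of the 10 were higher in libraries 4 to 6, against 19.9% of all genes, led by SDF2L1 (0.85 ± 0.094) and CRELD2 (0.41 ± 0.070). XBP1, DNAJB9, DNAJC3 and HERPUD1 were called in both lines, with opposite signs. HSPA5 (−0.04 ± 0.050) and HSP90B1 (−0.08 ± 0.050) were negative in MC38 too and not called there. SDF2L1 was positive in CT26 too (0.08 ± 0.144) and not called there. In HT29 0 of the 10 differed, none had an unadjusted p below 0.05, and edgeR called 0% of all genes, with 2473 at an unadjusted p below 0.05. The share of counts from mitochondrially encoded genes moved with the ranges, from 4.82 to 5.01% in CT26 cells-alone libraries 1 to 3 to between 7.87 and 8.29% in libraries 4 to 6, and its part in these shifts was not tested.

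Around the 10 genes, 91 further genes of the same pathways were examined in 6 lists. In HT29, 28 of 90 tested fell (31.1%, against 5.79% of all genes) and 2 rose (2.22%, against 7.75%). In CT26, 4 of 88 rose (4.55%, against 6.15%) and 1 fell (1.14%, against 3.1%). In MC38, 0 of 89 rose, against 3.82% of all genes, and 9 fell (10.1%, against 5.36%). The medians over the lists together were −0.10 in HT29, 0.06 in CT26 and −0.08 in MC38.

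Folding and degradation genes fell beside the chaperones in HT29. Of 24 other folding factors, 6 fell and 1 rose (ERO1A, log2 fold change 0.26 ± 0.056), with a list median of −0.10. HYOU1, a large HSP70-like exchange factor for HSPA5, fell from 505 ± 37 CPM (SD, n = 6) to 411 ± 21 (log2 fold change −0.30 ± 0.052, adjusted p = 0.00093), and DNAJC1, a J-domain protein, fell by 0.25 on the log2 scale (log2 fold change −0.25 ± 0.045). Of 18 degradation genes, 6 fell and 1 rose (EDEM1, 0.18 ± 0.052), with a median of −0.09. SELENOS, a selenoprotein of the retrotranslocation machinery, fell most surely (−0.29 ± 0.043, adjusted p = 0.000166), followed by SEL1L, the adaptor of the HRD1 ligase (−0.22 ± 0.046).

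Entry and exit of the endoplasmic reticulum showed the same sign in HT29. Of 15 translocon and signal peptidase genes tested, 5 fell and 0 rose (median −0.08), among them the signal peptidase gene SEC11C (−0.29 ± 0.050) and the channel gene SEC61A1 (−0.21 ± 0.039). Of 16 transport genes, 6 fell and 0 rose (median −0.08), among them the COPII coat genes SEC31A (−0.19 ± 0.035) and SEC23B (−0.19 ± 0.039). Of 8 genes of the PERK-ATF4 arm, 5 fell and 0 rose (median −0.24), among them DDIT3, which encodes CHOP (−0.37 ± 0.082), and ATF4 (−0.16 ± 0.043). ATF4 lost its call without cells-alone library 4 (adjusted p = 0.051). Of 9 sensors and factors upstream, 0 were called by edgeR in HT29, 1 had an unadjusted p below 0.05, and the median was −0.10.

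**Figure D4:**
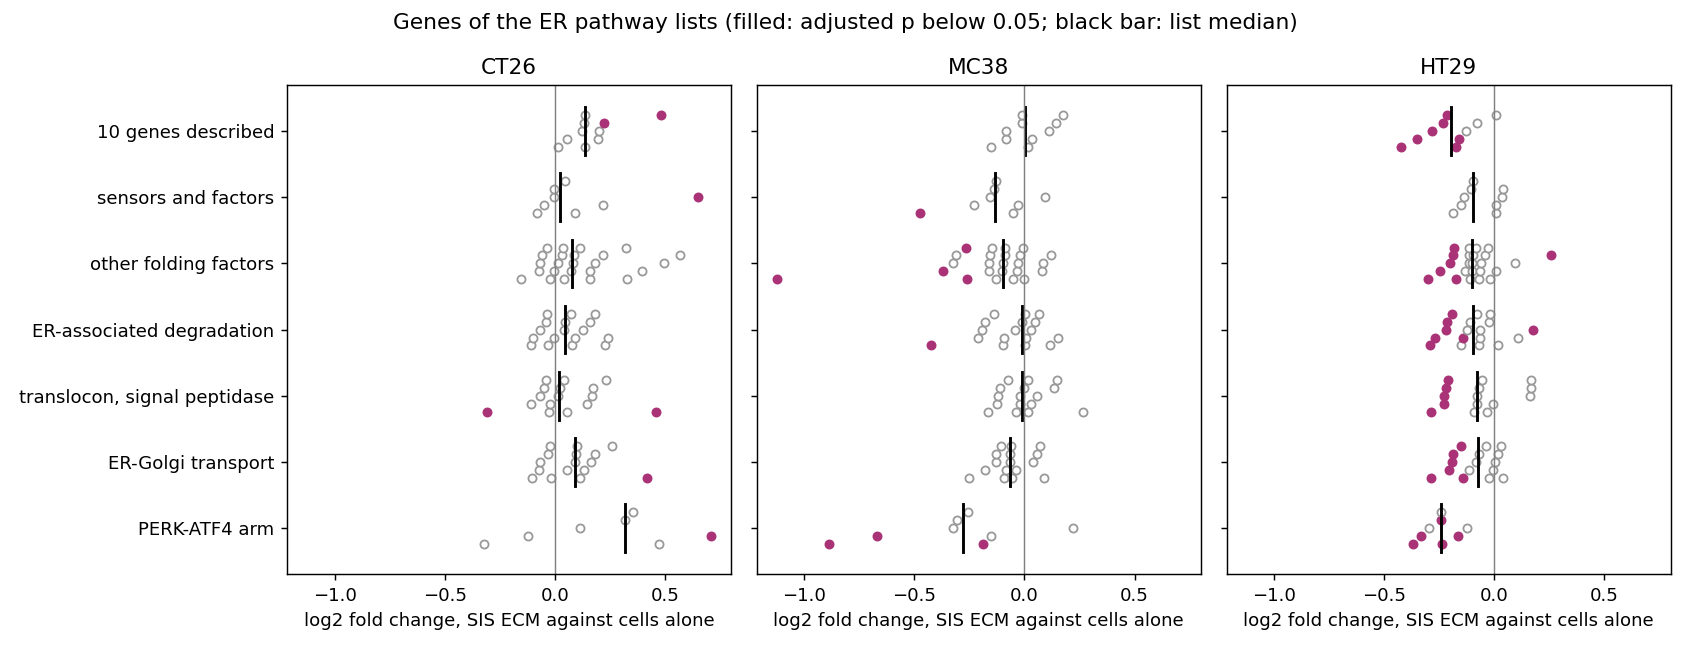
Log2 fold change with SIS ECM against cells alone for every tested gene of the 10 described and of 6 pathway lists, in CT26, MC38 and HT29. Each point is a gene, filled for an adjusted p below 0.05, and black bars are list medians. In HT29 all 7 medians lie below 0, while in CT26 all 7 lie above 0.

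In CT26 the called genes of these lists were few. ERN1, which encodes IRE1, ran from 102 to 157 CPM (median 124) in cells alone and from 156 to 234 (median 199) with SIS ECM (log2 fold change 0.65 ± 0.138, adjusted p = 0.00846). It was the only one of 8 tested sensors and factors that passed. DDIT3 rose (0.71 ± 0.137, adjusted p = 0.00455), alone among 7 tested genes of the PERK-ATF4 arm. Of 16 translocon genes SEC11C rose (0.46 ± 0.112) and TRAM1, a channel-associated protein, fell (−0.31 ± 0.067). Of 16 transport genes ARFGAP3, a Golgi GTPase activator, rose (0.42 ± 0.117, adjusted p = 0.0378), a call lost in 9 of 12 fits that left out a library, namely every cells-alone library and SIS ECM libraries 1, 2 and 3 in turn (adjusted p of up to 0.0886). In libraries 4 to 6 alone ARFGAP3 did not pass (0.15, adjusted p = 0.107), while ERN1, DDIT3, SEC11C and TRAM1 passed in each range alone. Of 24 other folding factors edgeR called 0 (7 at an unadjusted p below 0.05), and of 17 degradation genes also 0 (1 at that level).

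In MC38 the called genes of these lists all fell. ERO1A, the oxidase that recharges disulfide isomerases, averaged 1100 ± 224 CPM (SD, n = 5) in cells alone and 497 ± 46 (n = 5) with SIS ECM (log2 fold change −1.13 ± 0.130, adjusted p = 0.000288). It was 1 of 4 of 24 folding factors that fell, with PDIA5 (−0.37 ± 0.083, adjusted p = 0.0163), whose call was lost without cells-alone library 2 (adjusted p = 0.0515). TRIB3, a target of ATF4 and CHOP, fell from 41.0 ± 5.7 to 21.9 ± 1.7 CPM, a log2 fold change of −0.89 ± 0.093 (adjusted p = 0.000137), and 3 of 8 genes of the PERK-ATF4 arm fell. Of those, PPP1R15A (−0.67 ± 0.174) lost its call in 8 of 10 fits that left out a library, all but those without cells-alone libraries 4 and 5. NFE2L1, a membrane-bound factor of the endoplasmic reticulum, fell (−0.48 ± 0.092, adjusted p = 0.0085), alone among 8 sensors and factors. OS9, a lectin of degradation, fell (−0.42 ± 0.105), alone among 17 degradation genes, and lost its call in 6 of 10 such fits, those without cells-alone libraries 1, 2 and 3 and SIS ECM libraries 4, 5 and 6. In libraries 4 to 6 alone PPP1R15A (−0.10, adjusted p = 0.527) and PDIA5 (−0.27, adjusted p = 0.0569) did not pass, while ERO1A, TRIB3, NFE2L1 and OS9 passed in each range alone.

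Library by library, after centring within each line over all 34 libraries, the genes nearest HSPA5 among 7678 were GOLGA5 (root mean square difference of log2 CPM 0.0833), MIA3 (0.0839), HSP90B1 (0.0852), PDXDC1 (0.0859) and COPA (0.0896), against a median of 0.226. HERPUD1 ranked 24 and PDIA4 255, whereas SDF2L1 ranked 6486. The genes nearest XBP1 were ST13 (0.0749), MANF (0.0773), DNAJC3 (0.0784), NET1 (0.0847) and ATG3 (0.086), against a median of 0.189, while HSPA5 ranked 1422. HSP90B1 thus tracked HSPA5 more closely than XBP1 did (rank 504). Values were centred within lines and not within cultures, so these distances share the SIS ECM response as well as depth and the number ranges. A gene that did not vary would score 0.187 against HSPA5 and 0.112 against XBP1.

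In the authors' deposited table for HT29, 8 of the 10 genes had an adjusted p below 0.05, including XBP1 (log2 fold change −0.14, adjusted p = 0.0421), which edgeR did not call. The authors' deposited table for CT26 held DNAJB9 (0.47, adjusted p = 0.00485) and MANF (0.24, adjusted p = 0.0183) below that level, and the one for MC38 held none of the 10. The shares of all genes below that level in the authors' tables were not computed, so these counts stand without a background. In the authors' deposited table of Hallmark sets, the unfolded protein response had a normalised enrichment score of −1.95 in HT29 (adjusted p = 0.00144), with 5 of its 6 members from this group in the leading edge (all but DNAJB9). The authors' deposited table gave −1 in MC38 (adjusted p = 0.541) and −0.984 in CT26 (adjusted p = 0.547). The CT26 score did not pass, covered 107 genes and had 0 genes of this group in its leading edge. Its sign is therefore no reading of the 10 genes.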

How the data were processed

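PolyA RNA was sequenced as read pairs from a stranded kit, per the labels' protocols. The authors deposited 1 table of estimated counts per gene for each species, with no normalisation. The submitters' processing notes name cutadapt 1.18, STAR 2.7.0f, RSEM 1.3.1, limma, mm10 and hg38, and no source used here states the strand setting. Per the file headers, the authors deposited further tables of log2 fold changes, p-values and adjusted p-values per gene, a t statistic (a score) and a Hallmark enrichment score per line. A further 34 per-sample columns of those tables were not used. Counts were rounded, filtered with filterByExpr (minimum count 10) and tested in each line with edgeR 4.0.16 in R 4.3.3 by the two-sided quasi-likelihood F test, with TMM factors and Benjamini-Hochberg adjustment over all genes tested. Genes below 0.05 are described as having risen, fallen or differed. All adjusted p-values are edgeR's unless DESeq2 1.42.0, limma-voom (limma 3.58.1) or the authors' table is named. CPM values are TMM-scaled within a species, and log2 fold changes are given ± SE. Responses were compared between lines as contrasts, across species over genes among 16667 matched symbols. Mouse coordinates and exon lengths are from GENCODE M21, promoters from RefSeq (GRCm38.p6).

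The members and lists were chosen with earlier results of these data known. Named were the 10 members, up to 2 called genes per pathway list and line with the smallest adjusted p, and the 5 genes nearest HSPA5 and nearest XBP1. Others named (markers, ERO1A and EDEM1 in HT29) were chosen after their values were seen. Libraries that share a number deviated together in CT26 (6 of 6 pairs, r = 0.222 to 0.484). In MC38, 4 of 4 pairs did so (r = 0.188 to 0.321). Only 2 of 6 CT26 and 1 of 4 MC38 cells-alone libraries deviated most like the SIS ECM library of their own number. The difference between the number ranges was left in these values, so they do not separate pairing by single number from the ranges. The labels do not say what the numbers stand for. Read counts of human pseudogenes were at most 0.0274% of their parent gene (XBP1). The fitting code was tested on simulated data.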

Additional observations from a re-analysis of the deposited data

Results flagged for a closer look

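In all, 6 differences between groups passed a test of the difference itself. The HT29 response to SIS ECM was below the mean response of the mouse lines for CRELD2 (log2 difference −0.53), MANF (−0.35), XBP1 (−0.30) and PDIA4 (−0.21). For XBP1 the call rests on a negative value in HT29 (−0.13) and positive values in CT26 (0.14) and MC38 (0.18), of which 0 passed the test within a line. In CT26 the SDF2L1 response differed between libraries 4 to 6 and libraries 1 to 3 by −0.91, and its direction differed between the ranges. In MC38 the CRELD2 response differed between the ranges by 0.32, among 21.9% of all genes that did so. The last 2 tests were chosen after the data had been seen. In the levels of the 10 genes, 60 checks for a single library far from the rest of its group found 0.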

How the results depend on the processing

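Across alternatives, 0 called results turned direction. The number range mattered most. In CT26 the called genes, 1135 in the report, were 3545 with a range term (1859 higher, 1686 lower), 2281 with the replicate number as a block (replicate block), 2484 in libraries 1 to 3 alone (1231 higher, 1253 lower) and 2333 in libraries 4 to 6 alone. The called members, 2 in the report, were 4 with the range term, 5 in libraries 1 to 3, 1 with no filter on low counts, and 0 to 2 with a library left out. In MC38 the called genes, 1206 in the report, were 3246 (1608 higher, 1638 lower), 5287 and 2318 in those range fits, and 626 to 1948 with a library left out (a change of over 1.5 times without cells-alone library 1, 2, 3 or 4 or SIS ECM library 4 or 6). The called members there were 1 with the range term, 3 in libraries 1 to 3, 1 in libraries 4 to 6 and 1 with DESeq2. The MC38 block leaves cells-alone library 2 and SIS ECM library 6 without weight. In HT29 each range held 3 libraries per culture. Libraries 1 to 3 alone gave 719 genes and 4 members, all lower (CRELD2, HERPUD1, HSPA5 and HSP90B1), against 1.58% of all genes lower. Libraries 4 to 6 alone gave 417 genes and 2 members, both lower (CRELD2 and SDF2L1), against 0.865%. PDIA4 and MANF passed in neither HT29 range alone. HT29 libraries that share a number did not deviate together (r = −0.0956 to 0.0646, 0 of 6 above 0.1). The block there called 1880 genes, 1757 of them among the 2058 of the report, and 7 members. For MC38 against CT26 responses the range term gave 3740 genes and 5 members, the block 1772 and 1, and leaving out a library 0 to 1 members. For HT29 against mouse responses the range term gave 1796 genes and 8 members and the block 1015 genes. With no filter, 431 genes differed between HT29 number ranges. The block changed no other call of a member beside those named in the report. The cause of these shifts was not tested. Depth limits SDF2L1 most, at 4.39 CPM in its lowest library.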
